A study of Mus musculus with 20 samples.

Results

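The 9 genes Brca1, Brca2, Rad54l, Fancd2, Fanci, Blm, Chek1, Chek2 and Atm, which act in homologous recombination and in the DNA damage checkpoint, were followed through mouse liver tumors and livers. They were taken by gene symbol from the count tables and were compared gene by gene, and all 9 of the 50559 genes in the tables were found and tested. RNA was sequenced from 20 libraries, 5 for each of 4 groups of C57BL/6J mice of wild-type genotype. According to the methods of the study they were females, young adults at the time of injection. Harvest followed at times that varied in the study. No time is given for the sgTrp53 + MYC tumors or the livers, so age at harvest may differ between groups. In Aldafermin + MYC and FGF19 + MYC tumors, hydrodynamic gene transfer (HGT), a rapid tail vein injection that brings plasmids into a part of the hepatocytes, delivered MYC together with the hormone FGF19 or with Aldafermin, its analog with a changed N-terminal end. In sgTrp53 + MYC tumors the same route brought MYC and a CRISPR guide against Trp53, the gene of p53. The livers are labeled non treated, whereas the methods describe control livers that received an RFP plasmid. Tumors came from separate mice and all tumor groups carry MYC, so that MYC alone had no group of its own. These are tumors of transfected hepatocytes in otherwise normal livers.

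Homologous recombination repairs broken or stalled DNA by copying an intact sister strand, and is therefore used mostly in S and G2 phases. Brca1 prepares the break for repair, Brca2 is a scaffold of the repair complex, Rad54l is a motor protein that remodels DNA during strand exchange, and Blm resolves the joined molecules. Fancd2 and Fanci form a pair that the Fanconi anemia core complex tags with ubiquitin at crosslinked DNA. Atm senses breaks and activates Chek2, whereas Chek1 is activated by the related kinase Atr at stalled forks and holds back entry into mitosis. Resting hepatocytes rarely divide.

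Values are CPM, the reads of a gene for each 1e6 reads on genes. Library totals were first rescaled by TMM normalization, which adjusts for differences in RNA composition between libraries. The quasi-likelihood test of edgeR was applied to 14333 genes, and a gene passed at a Benjamini-Hochberg adjusted p under 0.05. Libraries held 18004977 to 44427184 reads on genes in livers, Aldafermin + MYC and FGF19 + MYC tumors, and 54042455 to 66354724 in sgTrp53 + MYC tumors. The sgTrp53 + MYC libraries were deposited in a table of their own, so the table and the group cannot be told apart. Trp53 was counted at 18.7 to 79.9 CPM in sgTrp53 + MYC tumors, below the 90.8 to 176 CPM of the other tumors, and at 28.8 to 36.4 CPM in livers. A count over the whole gene also takes in edited transcripts. The fetal liver gene Afp, a marker of hepatocellular tumors, stood at 295 to 4816 CPM in tumors and at 0.265 to 6.35 CPM in livers. The summed level of 8 hepatocyte markers was 184600 to 235540 CPM in livers and 3296 to 29411 CPM in tumors.

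Promoters of 300 bases (250 before and 50 after the start of the gene in RefSeq, table of build GRCm38.p6, each matched exactly once to GRCm39) were held for 8 of the 9 genes, and Fancd2 had no entry. They were searched on both strands for the E2F words TTTGGCGC and also TTTCGCGC and TTCCCGC, the cell cycle words TTTGAA and also TTCGAA, the CCAAT box and the E-box CACGTG. The word TTCCCGC occurred in 5 of the 8 promoters, those of Brca2, Fanci, Chek1, Chek2 and Atm, and in 4.6% of 32841 promoters. CCAAT occurred in 5 of the 8 (Brca1, Rad54l, Blm, Chek2 and Atm), against 37.4% of all promoters. The other words had no match in the 8 windows and were held by 0.515%, 0.323%, 17.9%, 1.56% and 7.15% of all promoters in the order given. The promoters of Rad54l and Chek1, of the 4 genes that were almost absent from livers, and of Atm, which differed least, are printed 5′ to 3′, with the E2F word in capitals (read here on its other strand, as GCGGGAA). A match describes letters in the window and shows no binding.
Rad54l (chr4:115980838-115981137, minus strand): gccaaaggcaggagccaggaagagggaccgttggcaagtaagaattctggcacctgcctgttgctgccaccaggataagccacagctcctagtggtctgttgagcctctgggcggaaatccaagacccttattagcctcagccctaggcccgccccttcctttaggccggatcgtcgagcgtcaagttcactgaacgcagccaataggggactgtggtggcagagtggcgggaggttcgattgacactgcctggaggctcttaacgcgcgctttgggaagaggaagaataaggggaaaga
Chek1 (chr9:36637905-36638204, minus strand): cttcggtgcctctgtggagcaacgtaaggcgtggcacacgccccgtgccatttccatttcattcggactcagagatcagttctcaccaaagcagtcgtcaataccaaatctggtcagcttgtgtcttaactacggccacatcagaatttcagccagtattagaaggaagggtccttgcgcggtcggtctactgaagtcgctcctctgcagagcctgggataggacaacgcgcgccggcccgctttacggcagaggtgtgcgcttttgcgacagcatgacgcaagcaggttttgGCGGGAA
Atm (chr9:53447922-53448221, minus strand): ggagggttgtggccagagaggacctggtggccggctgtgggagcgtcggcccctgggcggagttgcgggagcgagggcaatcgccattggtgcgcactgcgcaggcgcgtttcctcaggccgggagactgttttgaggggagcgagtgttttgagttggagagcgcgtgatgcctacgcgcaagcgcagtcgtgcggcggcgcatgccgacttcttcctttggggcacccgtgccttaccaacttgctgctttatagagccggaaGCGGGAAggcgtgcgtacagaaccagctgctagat
The Chek1 word starts 43 bases after the start of the gene and the Atm word 15 bases after it, and the printed Rad54l window lacks it. For Rad54l 2 windows were held, and only the first was searched and printed. The part of the word in the differences from livers was not tested.

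Against livers, all 9 genes were higher in FGF19/Aldafermin + MYC tumors (9 of 9 passed, against 39.2% of all genes tested that passed as higher), with log2 fold changes from 0.45 to 6.17 and a median of 3.43, beside a median of 0.10 over all genes. The genes fell into 3 steps. Rad54l, Fancd2, Fanci and Chek1 were almost absent from livers and rose by 5.65 to 6.17. Brca1, Brca2, Blm and Chek2 were present at a few CPM and rose by 2.20 to 3.43, and Atm, which was well expressed in livers, rose by 0.45. In sgTrp53 + MYC tumors all 9 also passed as higher (36.9% of all genes), from 1.07 to 6.22 with a median of 3.75. Both comparisons share the livers. For 8 genes every FGF19/Aldafermin + MYC tumor lay above every liver (28.5% of all genes), with Atm as the exception, and for all 9 every sgTrp53 + MYC tumor did (28.8%).

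**Figure D1:**
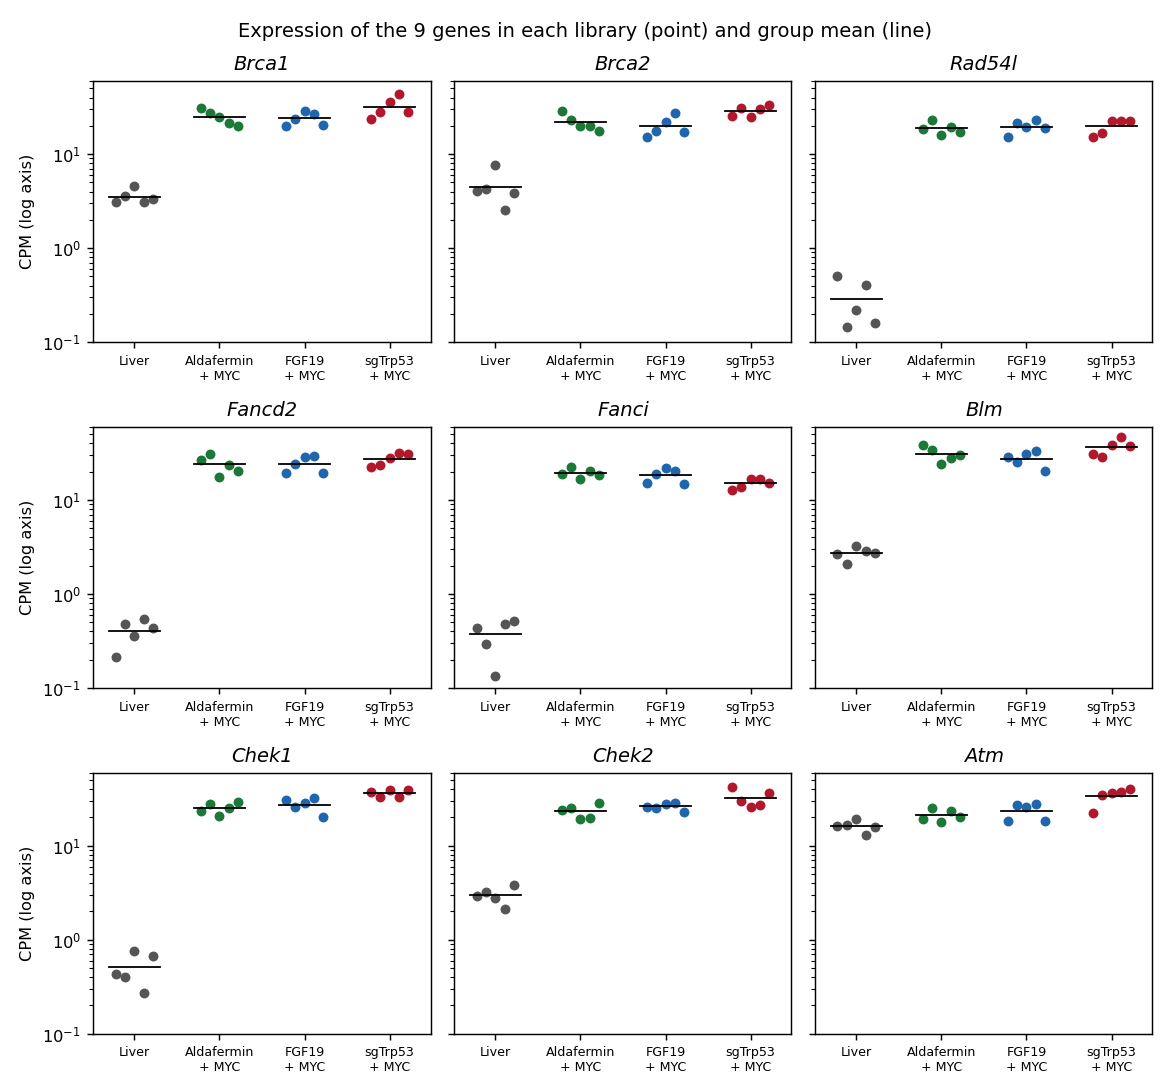
Expression of the 9 genes in CPM on a log axis, 1 point per library and a line at the group mean, 5 libraries per group. Livers lie under 1 CPM for Rad54l, Fancd2, Fanci and Chek1, and the livers approach the tumors for Atm, at 13.04 to 19.3 CPM.

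Rad54l, the motor protein of strand exchange, was counted at 0.502, 0.147, 0.221, 0.410 and 0.159 CPM in the 5 livers. It reached 18.5, 23.1, 16.0, 19.5 and 17.4 CPM in Aldafermin + MYC tumors and 15.1, 21.7, 19.3, 22.9 and 18.8 CPM in FGF19 + MYC tumors. In sgTrp53 + MYC tumors the values were 15.3, 16.7, 22.6, 22.5 and 22.6 CPM. The tumors of all 3 groups thus covered nearly one range, far from the livers. The log2 fold change was 6.17 ± 0.28 (SE) in FGF19/Aldafermin + MYC tumors (edgeR adjusted p = 4.74e-13) and 6.22 ± 0.28 in sgTrp53 + MYC tumors (edgeR adjusted p = 8.26e-13).

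Fancd2 was counted at 0.215, 0.477, 0.353, 0.546 and 0.438 CPM in livers. Its values were 26.7, 31.1, 17.7, 23.5 and 20.4 CPM in Aldafermin + MYC tumors, 19.5, 23.9, 28.8, 29.1 and 19.5 CPM in FGF19 + MYC tumors and 22.3, 23.6, 28.1, 31.6 and 30.5 CPM in sgTrp53 + MYC tumors. The 3 tumor groups overlapped. The gene rose by 5.86 ± 0.24 (SE) on the log2 scale in FGF19/Aldafermin + MYC tumors (edgeR adjusted p = 1.31e-13) and by 6.04 ± 0.24 in sgTrp53 + MYC tumors (edgeR adjusted p = 2.14e-13).

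Its partner Fanci was counted at 0.430, 0.293, 0.133, 0.478 and 0.518 CPM in livers. It stood at 18.8, 22.3, 16.5, 20.4 and 18.4 CPM in Aldafermin + MYC tumors, at 15.2, 18.8, 22.04, 20.2 and 14.8 CPM in FGF19 + MYC tumors, and at 12.8, 13.8, 16.6, 16.9 and 15.3 CPM in sgTrp53 + MYC tumors. Fanci was the only gene of the 9 whose mean was lowest in sgTrp53 + MYC among the tumor groups, although the groups overlapped. The log2 fold changes against livers were 5.68 ± 0.25 (SE, edgeR adjusted p = 4.43e-13) and 5.37 ± 0.26 (edgeR adjusted p = 1.41e-12).

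Chek1, the checkpoint kinase of the replication fork, was counted at 0.430, 0.403, 0.751, 0.273 and 0.677 CPM in livers. Aldafermin + MYC tumors had 23.5, 27.9, 20.9, 25.1 and 29.0 CPM and FGF19 + MYC tumors 30.8, 25.8, 28.3, 32.0 and 20.1 CPM. The 5 sgTrp53 + MYC tumors, at 37.5, 32.8, 38.8, 32.96 and 38.9 CPM, were all above the highest of the other tumors. The log2 fold changes against livers were 5.65 ± 0.22 (SE, edgeR adjusted p = 9.93e-14) and 6.11 ± 0.23 (edgeR adjusted p = 1.07e-13). These 4 genes were under 1 CPM in every liver, with 3 to 17 reads each, and therefore entered the test through the tumors alone. Without a filter on low counts all 9 genes also passed in both comparisons.

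Chek2, the kinase downstream of Atm, was present in livers at 2.94, 3.23, 2.78, 2.12 and 3.83 CPM. It was counted at 24.2, 25.1, 19.2, 19.96 and 28.3 CPM in Aldafermin + MYC tumors, 25.8, 25.3, 28.1, 28.7 and 23.1 CPM in FGF19 + MYC tumors and 41.8, 30.1, 26.1, 27.2 and 36.02 CPM in sgTrp53 + MYC tumors. Chek2 rose by 3.04 ± 0.17 (SE) on the log2 scale in FGF19/Aldafermin + MYC tumors (edgeR adjusted p = 6.21e-12) and by 3.43 ± 0.18 in sgTrp53 + MYC tumors (edgeR adjusted p = 4.87e-12). Chek1 reads were 0.169 ± 0.0598 (SD, n = 5) times the Chek2 reads in livers, and about as many as Chek2 reads in tumors (1.09 ± 0.107 in Aldafermin + MYC, 1.04 ± 0.121 in FGF19 + MYC and 1.15 ± 0.218 in sgTrp53 + MYC, n = 5 each).

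Atm, the kinase at the head of the break response, was the most expressed of the 9 in livers, at 16.4, 16.6, 19.3, 13.04 and 15.7 CPM. Aldafermin + MYC tumors had 19.2, 24.96, 17.8, 23.4 and 20.1 CPM and FGF19 + MYC tumors 18.3, 27.2, 25.5, 27.8 and 18.6 CPM. The lowest of these tumors overlapped the highest liver. The 5 sgTrp53 + MYC tumors had 22.4, 34.7, 36.2, 37.3 and 40.0 CPM, all above the livers, with 1 tumor well below the other 4. The rise was 0.45 ± 0.15 (SE, edgeR adjusted p = 0.0102) in FGF19/Aldafermin + MYC tumors and 1.07 ± 0.17 (edgeR adjusted p = 1.61e-05) in sgTrp53 + MYC tumors, on the log2 scale. With library totals in place of TMM the values were 1.30 and 1.96. With Aldafermin + MYC tumors alone, Atm did not pass against livers (0.38, edgeR adjusted p = 0.0545, against 38.4% of all genes that passed as higher).

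Brca1 ranged from 3.07 to 4.59 CPM in livers, 20.01 to 30.7 in Aldafermin + MYC, 20.1 to 29.1 in FGF19 + MYC and 23.6 to 43.5 in sgTrp53 + MYC tumors, and rose by 2.78 ± 0.18 and 3.16 ± 0.19 (SE) on the log2 scale in the comparisons with livers (edgeR adjusted p = 4.94e-11 and 3.78e-11). Brca2 ranged from 2.53 to 7.69 CPM in livers, 17.4 to 28.5, 15.1 to 27.2 and 24.8 to 33.3 CPM in the same tumor groups, and rose by 2.20 ± 0.22 and 2.69 ± 0.24 (edgeR adjusted p = 3.10e-08 and 8.93e-09). Blm ranged from 2.09 to 3.22 CPM in livers, 23.9 to 38.6, 20.2 to 32.96 and 28.9 to 46.8 CPM in tumors, and rose by 3.43 ± 0.18 and 3.75 ± 0.19 (edgeR adjusted p = 2.95e-12 and 2.86e-12). The liver values of these genes stayed below every tumor.

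**Figure D2:**
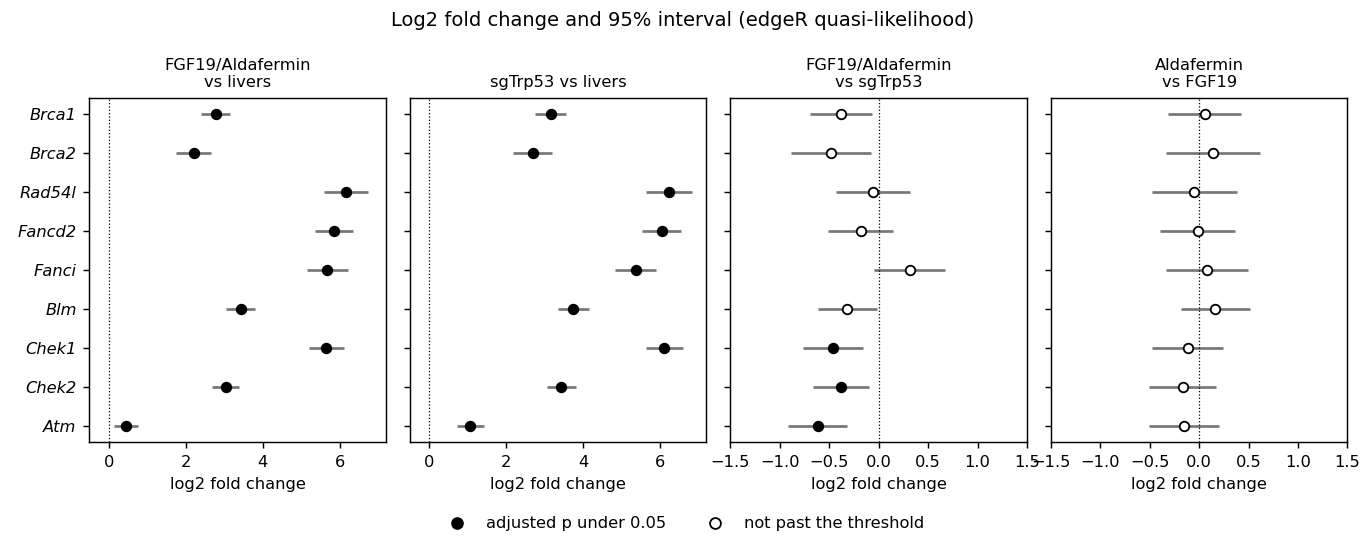
Log2 fold change (point) and 95% interval (line) of the 9 genes in 4 comparisons, filled where the adjusted p was under 0.05, with a wider scale in the comparisons with livers. All 9 genes lie above 0 against livers. Between the first pair of tumor groups, the intervals of Brca1, Brca2, Blm, Chek1, Chek2 and Atm lie below 0, of which the last 3 passed after adjustment, and every interval spans 0 between Aldafermin and FGF19. Between FGF19/Aldafermin + MYC and sgTrp53 + MYC tumors, 6 of the 9 genes and 5194 of 14333 genes had an unadjusted edgeR p under 0.05.

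Per kilobase of exon, a rough scale for setting different genes side by side, the order changed between livers and tumors. The lengths merge all exons annotated for a gene in GENCODE, whereas the reads were assigned to RefSeq genes. The order of the genes within a group therefore depends on these lengths. In livers Atm led at 1.09 ± 0.151 CPM per kilobase (SD, n = 5), before Chek2 at 0.414 ± 0.0869 and Brca1 at 0.403 ± 0.0715, which did not differ beyond their spread, and Rad54l came last at 0.0271 ± 0.0150. In tumors Atm was among the lowest, at 1.42 ± 0.201 in Aldafermin + MYC, 1.58 ± 0.315 in FGF19 + MYC and 2.29 ± 0.459 in sgTrp53 + MYC tumors. Chek2 and Fanci led the first pair of groups, at 3.25 ± 0.526 and 3.30 ± 0.372 in Aldafermin + MYC tumors and 3.65 ± 0.314 and 3.12 ± 0.536 in FGF19 + MYC tumors, where their spreads overlapped. In sgTrp53 + MYC tumors Chek2 led at 4.49 ± 0.914, followed within its spread by Brca1 at 3.62 ± 0.895, and Fanci was the fifth at 2.58 ± 0.303. Brca2 had the lowest mean in all 3 tumor groups, at 1.33 ± 0.256, 1.20 ± 0.291 and 1.76 ± 0.222, and its range of 1 SD overlapped that of Atm in Aldafermin + MYC and FGF19 + MYC tumors and that of Rad54l in sgTrp53 + MYC tumors.

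Markers of cell division moved with these genes. All 20 genes of a list of cycling cells were higher in FGF19/Aldafermin + MYC tumors than in livers (median log2 fold change 5.47), and their summed level was 99.3 to 168 CPM in livers and 2468 to 3764 CPM in tumors. The part of the cycling cells in the differences from livers was not tested, and in bulk tissue fewer cells of a type and less RNA per cell cannot be told apart. Between FGF19/Aldafermin + MYC and sgTrp53 + MYC tumors 0 of the 20 passed the edgeR test (2 at an unadjusted p under 0.05 and 2 with DESeq2, all lower in FGF19/Aldafermin + MYC tumors), and the median was −0.02.

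FGF19/Aldafermin + MYC tumors were then set against sgTrp53 + MYC tumors. These groups differ both in the hormone or its analog and in the guide against Trp53, besides the table. The parts of these in a difference cannot be told apart. Chek1, Chek2 and Atm were lower in FGF19/Aldafermin + MYC tumors (3 of 9 genes, against 12.1% of all genes that passed as lower), and 0 passed as higher with edgeR or DESeq2, or with edgeR at an unadjusted p under 0.05 (11.6% of all genes passed as higher). The medians were −0.38 over the 9 genes and −0.02 over all genes. Atm had the greatest difference, with a mean of 22.3 CPM in the 10 FGF19/Aldafermin + MYC tumors and 34.1 CPM in sgTrp53 + MYC tumors, a log2 fold change of −0.62 ± 0.14 (SE, edgeR adjusted p = 0.00447), although 1 sgTrp53 + MYC tumor at 22.4 CPM lay among the others. Chek1 differed by −0.46 ± 0.15 (26.3 against 36.2 CPM, edgeR adjusted p = 0.0269), and its groups did not overlap, as for 2.42% of all genes in this direction. Chek2 differed by −0.38 ± 0.14 (24.8 against 32.2 CPM, edgeR adjusted p = 0.0488), with overlapping groups.

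The 6 other genes did not pass. The log2 fold changes were −0.38 for Brca1 (edgeR adjusted p = 0.071), −0.48 for Brca2 (edgeR adjusted p = 0.0744) and −0.32 for Blm (edgeR adjusted p = 0.112), and Brca1 and Brca2 passed with DESeq2 (adjusted p = 0.0276 and 0.0307). They were −0.18 for Fancd2, with a 95% interval of −0.51 to 0.15, −0.05 for Rad54l, from −0.43 to 0.32, and 0.31 for Fanci, from −0.05 to 0.67. These intervals leave room for differences of up to 0.67 on the log2 scale. Fanci alone had a value above 0 in the reported fit.

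The call of Chek2 was the least stable. When 1 library at a time was removed, it passed 3 of 15 times (without Aldafermin + MYC replicate 5, sgTrp53 + MYC replicate 3 or sgTrp53 + MYC replicate 4), and otherwise its adjusted p rose to as much as 0.146 (without sgTrp53 + MYC replicate 1). Chek1 did not pass without sgTrp53 + MYC replicate 3 (edgeR adjusted p = 0.0623) or replicate 5 (edgeR adjusted p = 0.0664), and Atm passed all 15 times. Across 13794 genes with an annotated sequence, the log2 fold change of this comparison moved with the GC content of the exons (Spearman correlation across genes, which are not independent replicates, 0.325) and with their length (−0.22), and the 9 genes have 41.1% to 47.1% GC, all below the median of 48.9%. After a correction of each library for GC content and exon length, Atm passed (−0.32, edgeR adjusted p = 0.026) whereas Chek1 (−0.14, edgeR adjusted p = 0.413) and Chek2 (−0.25, edgeR adjusted p = 0.168) did not.

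**Figure D3:**
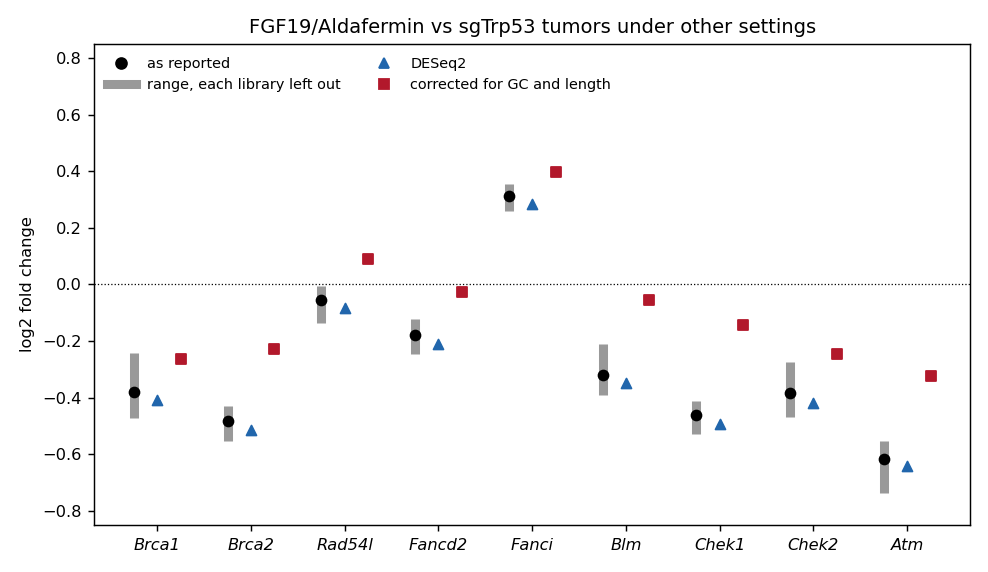
Log2 fold change of the 9 genes between FGF19/Aldafermin + MYC and sgTrp53 + MYC tumors as reported (black), its range when each library was left out (grey bar), with DESeq2 (blue) and after correction for GC content and exon length (red). The correction moves every gene upward, Chek1 from −0.46 to −0.14 and Atm from −0.62 to −0.32, and brings Rad54l to 0.09.

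Fancd2 and Fanci, the subunits of one complex, were compared within each library, a measure that does not depend on library scaling, chosen after their values were seen. Fancd2 reads exceeded Fanci reads 1.23 ± 0.165 fold (SD, n = 5) in Aldafermin + MYC tumors, 1.32 ± 0.0668 fold in FGF19 + MYC tumors and 1.80 ± 0.13 fold in sgTrp53 + MYC tumors. The ratios of the 5 sgTrp53 + MYC tumors, 1.69 to 2.00, lay above all 10 others, 1.07 to 1.44. The mean log2 ratio differed by −0.50, which is given as a description with no test, since the pair was chosen for its values. The difference was −0.44 after the correction for GC content and exon length and −0.52 to −0.46 when each library was left out. Aldafermin + MYC and FGF19 + MYC tumors differed by −0.11. For Chek1 to Chek2 and for Brca1 to Brca2 the same difference between FGF19/Aldafermin + MYC and sgTrp53 + MYC tumors was −0.10 and 0.14, with overlapping groups. In livers, where both genes had few reads, the Fancd2 to Fanci ratio was 1.36 ± 0.841 (SD, n = 5).

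**Figure D4:**
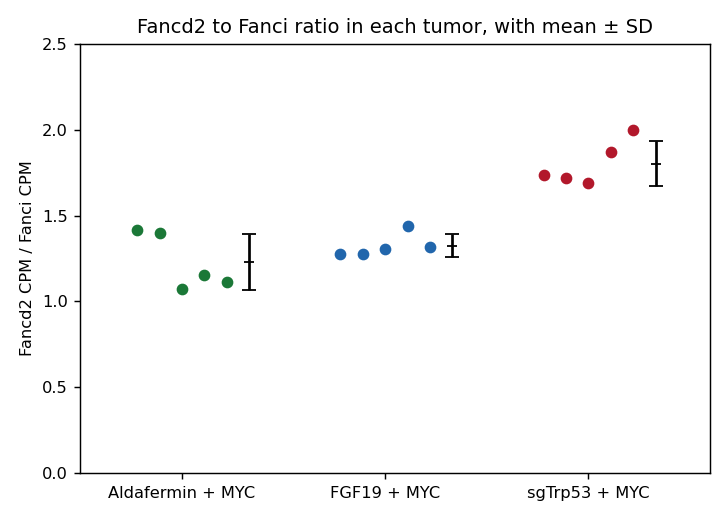
Ratio of Fancd2 to Fanci CPM in each tumor (points), with mean ± SD to the right of each group, 5 tumors per group. The sgTrp53 + MYC tumors lie between 1.69 and 2.00 and all other tumors between 1.07 and 1.44.

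Both genes overlap other genes on the opposite strand. In the annotation of GRCm39, Fanci (chr7:79041677-79100027) shares 18.2% of its exon bases with Polg, and Fancd2 (chr6:113508412-113573982) shares 15.7% with Fancd2os, Emc3 and a long noncoding RNA. The share is 22.2% for Rad54l (chr4:115948561-115980894, with Lrrc41), 15.3% for Brca2 (chr5:150446057-150496080), 6.53% for Blm (chr7:80104481-80184899) and 3.65% for Chek1 (chr9:36614487-36638361), and 0 for Brca1 (chr11:101379577-101442781), Chek2 (chr5:110987826-111022011) and Atm (chr9:53348097-53448236). Reads counted as ambiguous between genes made up 3.03% to 6.30% of reads in the first table and 11.1% to 14.6% in the sgTrp53 + MYC table. The part of this in the ratio was not tested. Genes with at least 10% of overlapped bases had a median log2 fold change of 0.0036 in this comparison (3367 genes), and genes without overlap of 0.013 (5761 genes). A median over many genes cannot show what overlap does to a single gene. The overlaps are those of GENCODE, whereas the reads were assigned to RefSeq genes.

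Aldafermin + MYC and FGF19 + MYC tumors, which differ in the N-terminal end of the hormone, were compared last. By edgeR 0 of the 9 genes passed (0% of all genes tested), and at an unadjusted p under 0.05 there were 0 of the 9 and 1048 of 14333 genes. DESeq2 and edgeR's likelihood ratio test also passed 0 of the 9, and 96 and 59 of all genes. The log2 fold changes ran from −0.17 for Chek2 to 0.16 for Blm, and the 95% intervals together spanned −0.51, for Atm, to 0.61, for Brca2. Differences up to these bounds are within the intervals.

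The other genes of the same pathways were taken from lists, and their counts stand beside all genes tested, of which 39.2% passed as higher and 34.5% as lower in FGF19/Aldafermin + MYC tumors than in livers, and 36.9% and 33% in sgTrp53 + MYC tumors. Between FGF19/Aldafermin + MYC and sgTrp53 + MYC tumors the shares of all genes were 11.6% higher and 12.1% lower, and a list with a share near these shows nothing about its members. Among 22 partners in homologous recombination, 18 were higher and 1 was lower in FGF19/Aldafermin + MYC tumors than in livers (median log2 fold change 2.59). Exo1, the nuclease that trims broken ends, was among the highest at 7.91, with Fignl1, an ATPase of this pathway, at 6.52. In sgTrp53 + MYC tumors 20 were higher and 1 was lower, with a median of 2.65. Between tumor groups 1 was higher and 3 were lower in FGF19/Aldafermin + MYC tumors (median −0.07), with Rbbp8, the CtIP protein that starts resection, at −1.09 (21.98 against 46.9 CPM, no overlap) and the helicase Brip1 at 0.65. Rbbp8 was not the lowest of this list, whose minimum was −1.57.

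Of 17 Fanconi anemia genes, 15 were higher and 1 lower than in livers in both tumor comparisons (medians 1.27 and 1.30), among them Fanca of the core complex at 5.41 and the ubiquitin conjugating enzyme Ube2t at 4.60, with the nuclease Fan1 at −0.64 in FGF19/Aldafermin + MYC tumors. Between tumors Usp1, which removes ubiquitin from Fancd2, was lower in FGF19/Aldafermin + MYC tumors (−0.56), as was Rfwd3 (−0.45), and Faap24 was higher (0.53). The remaining 14 did not pass.

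Genes around Blm moved less uniformly. Of 13 genes for the Blm complex, other RecQ helicases and junction nucleases, 7 were higher and 2 lower than in livers in FGF19/Aldafermin + MYC tumors (median 0.45), and 7 were higher and 3 lower in sgTrp53 + MYC tumors (median 0.42). Within the Blm complex itself Rmi2 was higher (5.82) and Rmi1 lower (−0.74), and the Werner helicase Wrn was lower (−0.65). Eme1, partner of the nuclease Mus81, was higher (6.30). Between tumors 2 were higher (Mus81 at 0.63 and Slx1b at 0.62) and 1 lower (Wrn at −0.60) in FGF19/Aldafermin + MYC tumors.

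Of 25 checkpoint partners 23 could be tested, since Atrip was too low and H2ax was listed at 0 in all 20 libraries. In FGF19/Aldafermin + MYC tumors 19 were higher and 1 lower than in livers (median 1.81), led by the phosphatase Cdc25c, which opens mitosis, at 7.15 and the Chek1 mediator Clspn at 6.39, with Uimc1 at −0.45. In sgTrp53 + MYC tumors 21 were higher and 0 lower (median 2.09), with the same counts by DESeq2 and by edgeR at an unadjusted p under 0.05. Between tumors 1 was higher and 5 were lower in FGF19/Aldafermin + MYC tumors, with a median of −0.29. Rnf8 and Rnf168, ligases that act one after the other at breaks, passed in opposite directions (0.80 and −0.54), and Rad9b was lower (−1.52). The Rad9b groups overlapped, with a wide spread of 2.19 to 51.3 CPM in sgTrp53 + MYC tumors. The ranges were 2.00 to 15.9 CPM in Aldafermin + MYC and 5.61 to 19.3 CPM in FGF19 + MYC tumors.

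End joining, the repair route that needs no sister strand, was divided. Of 14 genes 7 were higher and 3 lower in FGF19/Aldafermin + MYC tumors than in livers (median 0.43), and 9 were higher and 4 lower in sgTrp53 + MYC tumors (median 0.74). The polymerase Polq was higher at 5.88 and the Ku subunit Xrcc6 at 2.00, whereas Paxx (−3.34) and Mad2l2 (−2.21) were lower. Between tumors Xrcc6 (−0.45) and Rif1 (−0.40) were lower in FGF19/Aldafermin + MYC tumors. With Aldafermin + MYC set against FGF19 + MYC tumors, 0 of the 89 genes in these 5 lists of partners passed with edgeR or DESeq2, and 3 had an unadjusted edgeR p under 0.05.

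**Figure D5:**
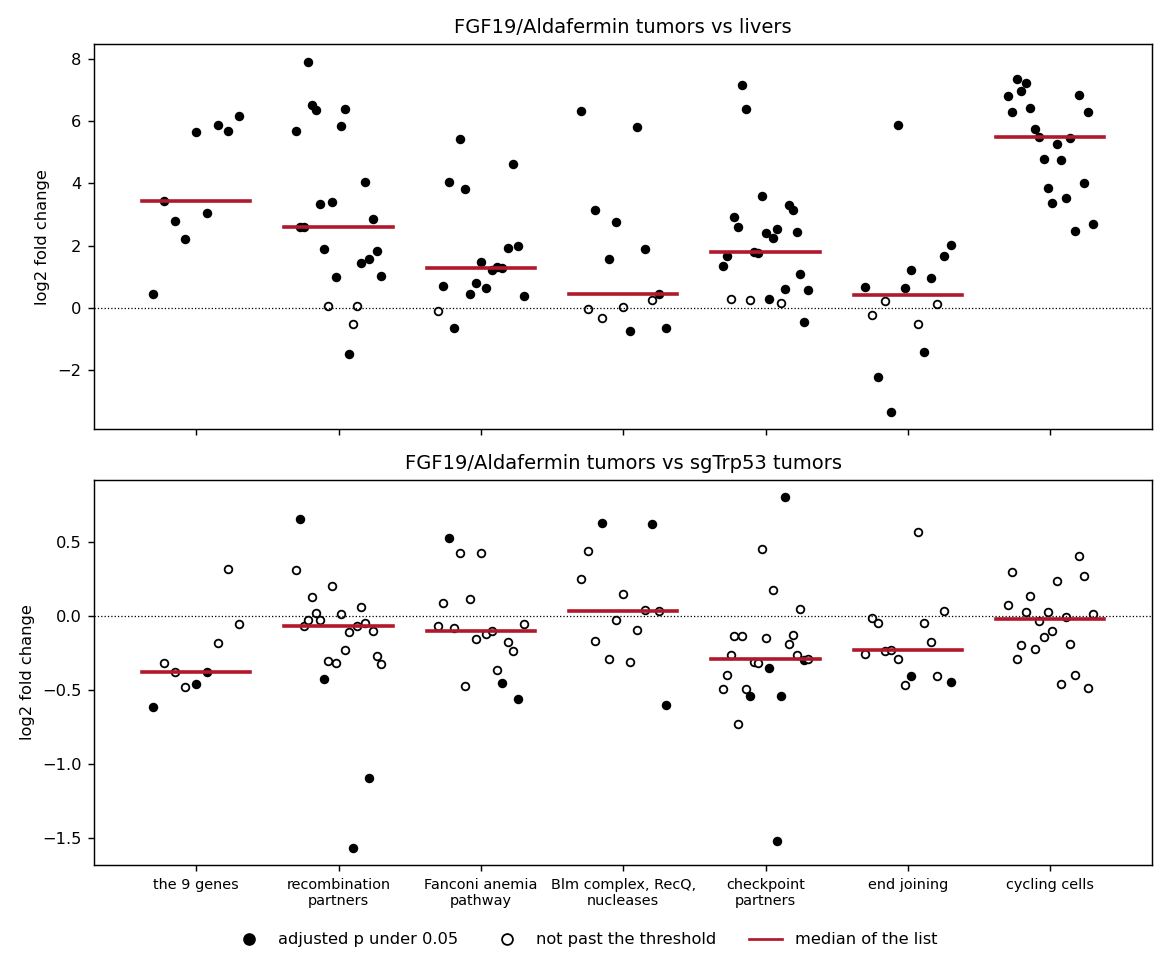
Log2 fold change of each gene by list (points, filled where the adjusted p was under 0.05) with the median of each list (red line), against livers above and against sgTrp53 + MYC tumors below. Against livers the medians run from 0.43 for end joining to 5.47 for cycling cells, and between tumors from −0.38 for the 9 genes to 0.03 for the Blm list.

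Within the tumor groups the 9 genes varied together only in part. After the mean of each group was removed, the correlation of log2 CPM over the 15 tumors was positive in 31 of the 36 pairs, with a median of 0.523 and a range from −0.329 to 0.900. Fancd2 and Fanci were the closest pair, at 0.900. Chek1 and Chek2 had correlations to the proliferation marker Mki67 of −0.237 and −0.549, against 0.313 to 0.759 for the other 7 genes. Mki67 is a single gene of the cycling list and did not follow the sum of that list in every tumor. Aldafermin + MYC replicate 5 had Mki67 at 74.4 CPM and a sum of 3003 CPM. In replicate 3 of that group the values were 152 and 2672 CPM. Correlations of the 9 genes with that sum were not computed. Among all genes tested, the most alike were Ttk for Fancd2 (0.966), Wapl for Fanci (0.951), Ncapg for Atm (0.938), Stat5a for Rad54l (0.935), Mastl for Blm (0.934), Hip1r for Brca1 (0.918), Pgrmc2 for Brca2 (0.914), 2810002D19Rik for Chek2 (0.957) and Dcaf17 for Chek1 (0.888). These correlations describe 15 libraries that share depth and composition within each table, and no test was made of them. The share of positive pairs over all genes was not computed, so 31 of 36 cannot be set against it. Each most alike gene is the highest of all genes tested, and such a value is high in part by selection.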

How the data were processed

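RNA from snap frozen tumors and livers was made into stranded mRNA libraries, and paired end reads were aligned by the authors with HISAT2 to Mm39 and assigned to RefSeq genes with htseq-count. The strand setting is not given in the sources used here. The deposited values are raw counts per gene in 2 tables. All sample columns were used, and the 5 summary lines, which held 33.7% to 56.2% of the reads of a library, were removed.

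The 14333 genes that reached 1 CPM in 5 or more libraries were fitted in 1 model of 4 groups with R 4.3.3 and edgeR 4.0.16 (TMM, quasi-likelihood test, Benjamini-Hochberg threshold 0.05). Log2 CPM used a prior count of 2. The alternatives were DESeq2 1.42.0, the likelihood ratio test, other scalings and filters, a GC and length correction (splines with 5 degrees of freedom) and leaving out libraries. Exon positions, GC and lengths came from GENCODE M39 (GRCm39). None of the 9 genes was at 0 in a group.

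The 9 genes and the lists were chosen with earlier results of these data known. Named genes are the 9, up to 2 highest and 2 lowest significant genes of each list and comparison (not all are printed), the gene most like each member, and Trp53, Afp, Gpc3, Mki67 and Pcna. H2ax, Atrip and the biliary markers fall outside this rule. Some genes of the lists are not reported here by name.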

Additional observations from a re-analysis of the deposited data

Results flagged for a closer look

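The comparison of the 2 kinds of tumor given above is also the comparison of their differences from livers, since the shared livers cancel. It is the same test, in which 3 of the 9 genes differed. The log2 fold change against livers was lower in FGF19/Aldafermin + MYC than in sgTrp53 + MYC tumors by −0.46 for Chek1, −0.38 for Chek2 and −0.62 for Atm (edgeR adjusted p = 0.0269, 0.0488 and 0.00447). The means were higher in the 5 sgTrp53 + MYC tumors for all 3 genes, and every sgTrp53 + MYC tumor exceeded every other tumor only for Chek1 among them. Across the alternatives that left out no library and the reported fit, 11 in all, Atm passed in 11, Chek1 in 8 and Chek2 in 7. Of 36 sets of 5 values (9 genes in 4 groups), 0 held a library that stood apart by Dixon's test. With 5 values this test has little power, so it cannot show that no library stood apart. The Atm value of sgTrp53 + MYC replicate 1, 22.4 CPM, was not flagged beside 34.7 to 40.0 CPM in the others of its group.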

How the results depend on the processing

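Against livers all 9 genes passed under every alternative in sgTrp53 + MYC tumors, and in FGF19/Aldafermin + MYC tumors under every alternative except Aldafermin + MYC tumors alone, where 8 passed. Between FGF19/Aldafermin + MYC and sgTrp53 + MYC tumors the 3 passing genes became 5 with DESeq2 and 5 with no filter on low counts, and 1 with the GC content and exon length correction, 1 with FGF19 + MYC tumors alone and 1 without sgTrp53 + MYC replicate 5. When each library was left out the number ranged from 1 to 3, and that of all genes from 2497 to 3777. Among all genes, 3399 of 14333 passed in the reported fit, 4139 of 14333 with DESeq2 and 3806 of 29921 with no filter. The number of passing genes thus also moved with the setting over all genes. Replicate numbers do not pair the samples (6 of 30 same-numbered pairs of libraries correlated above 0.1, range −0.333 to 0.333), and with the replicate number as a block 1 gene passed in this comparison and 9, 9 and 0 in the others. After the GC and length correction Rad54l turned to 0.0907 in this comparison and Fancd2 to 0.0245 between Aldafermin + MYC and FGF19 + MYC tumors. In the latter, leaving out single libraries turned the sign of Brca1 (range −0.0299 to 0.134), Rad54l (−0.13 to 0.0153) and Fancd2 (−0.129 to 0.0762), none of them significant in any fit. The cause of these changes was not tested. Scaling by library totals moved the median of all genes against livers from 0.10 to 0.94 in FGF19/Aldafermin + MYC tumors and from 0.07 to 0.95 in sgTrp53 + MYC tumors, and that of the 9 genes from 3.43 to 4.26 and from 3.75 to 4.63. Liver values of Rad54l, Fancd2, Fanci and Chek1 rest on 3 to 17 reads per library, which limits the precision of their fold changes.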

Other observations

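The level of other cell types also differed between the groups in which the 9 genes differed. The summed level of 6 macrophage markers was 286 to 419 CPM in livers, 83.7 to 305 CPM in Aldafermin + MYC, 114 to 232 CPM in FGF19 + MYC and 56.4 to 104 CPM in sgTrp53 + MYC tumors, and 4 of the 6 were higher in FGF19/Aldafermin + MYC than in sgTrp53 + MYC tumors (11.6% of all genes passed as higher). Of 8 hepatocyte markers 3 were higher and 1 was lower in the same comparison (median log2 fold change 1.22), whereas 0 of the 6 endothelial markers and 0 of the 6 stellate cell and fibroblast markers passed the edgeR test (2 and 1 at an unadjusted p under 0.05, and 0 and 1 by DESeq2). The 6 endothelial markers summed to 227 to 340 CPM in livers and 50.2 to 168 CPM in tumors. The 6 markers of stellate cells and fibroblasts summed to 315 to 453 CPM in livers and 111 to 1556 CPM in tumors. This sum joins markers that moved in opposite directions, with 2 higher and 3 lower than in livers in both tumor comparisons. The macrophage markers were also divided, with 1 higher and 3 lower than in livers in FGF19/Aldafermin + MYC tumors. In sgTrp53 + MYC tumors 1 macrophage marker was higher and 5 were lower than in livers. The 4 biliary markers reached 312 CPM in 1 sgTrp53 + MYC tumor, against at most 5.98 CPM in the FGF19/Aldafermin + MYC tumors and 7.58 to 18.4 CPM in livers. Markers of T and NK cells summed to at most 5.99 CPM and markers of B cells to at most 7.65 CPM in any library, and Trac was listed at 0 in every library. The part of these cells in the differences of Chek1, Chek2 and Atm was not tested.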
